A study of Oryza sativa with 6 samples.

Results

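The miR444 family is a set of small RNAs of grasses and other monocots that guide the cutting of transcripts of MADS-box transcription factors. It was followed here through 13 of the 641 miRNA names in a small RNA count table of germinating rice seeds. Its members are all names with the stem mir444: mir444a, mir444a-3p.2, mir444a-5p, mir444b, mir444b-1, mir444b-2, mir444c-1, mir444c-2, mir444c-3p, mir444d-2, mir444d-3, mir444e and mir444f. The members were taken by name alone, with no measured value used, though earlier results of these data were known.

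As background, miR444 precursors are transcribed from the strand opposite to their own MADS-box target genes, so a miR444 is cut from RNA that is antisense to the message it acts on. In rice its targets belong to the AGL17-like group of MADS-box genes and include OsMADS23, OsMADS27 and OsMADS57. In rice these links have been tied to tillering, to nitrate responses of roots and to antiviral silencing, where the MADS-box proteins repress an RNA-dependent RNA polymerase gene. Several mature miRNAs can be cut from one miR444 precursor, and a number at the end of a name tells them apart. Most such names in the table carry the number after a hyphen (mir444b-1, mir444b-2) and 1 after a dot (mir444a-3p.2). Both forms were read as variant numbers, which the sources used here do not state.

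The seeds were of the cultivar Kasalath, an aus-type rice with no stated mutation or transgene. They germinated on damp tissue with no medium, at 25 °C (normal, 3 libraries) or at 35 °C (hot, 3 libraries), and the labels give 5 days after germination for all 6. Small RNA came from whole germinating seeds, so fewer cells that make a miRNA and less of it per cell cannot be told apart. The labels do not say how seeds or dishes were pooled into a library. The p-values below therefore measure the spread between these libraries. Kasalath reads may also differ from the reference rice that miRNA names rest on, which was not tested.

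The column sums of the table ran from 136294 to 377473 counts, and the totals by which the authors divided, recovered from their normalised values, from 157488 to 275549. In the hot libraries the sums exceed the totals, and in the normal libraries they are below them. The sums add rows with equal counts once per name, and the 641 names hold 414 distinct count patterns. They are therefore no count of separate reads, which also limits the CPM below. What the totals count is not stated in the file headers or the labels, so values and calls made with them rest on a quantity of unknown meaning. A pair of scalings was therefore kept in view: TMM factors on the column sums, the main one, given as CPM (the count over the scaled sum, on the usual CPM scale), and the deposited library totals.

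The 13 names hold far fewer measurements than names. They share 8 different rows of counts, and 8 of the names stand in identical rows. mir444a equals mir444b-2 in every library. mir444b, mir444c-2 and mir444c-3p are equal to each other, and so are mir444a-3p.2, mir444d-2 and mir444e. mir444f is 3 times mir444a-5p, but both have counts in hot library 3 alone (3 and 1), so that this multiple says little about shared reads. Joined with it, 7 count patterns remain.

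Rows of the family also add up. The counts of mir444b-1 are those of mir444c-1 plus those of mir444d-3 in 6 of 6 libraries, with both parts above 0 in each. mir444a differs from mir444b only in hot library 3, by 3 counts, and mir444f has exactly those 3 counts and none elsewhere. Exact sums of the first kind, with both parts above 0 in 3 or more libraries, were found in 12 of the 29 families that have 3 or more different rows, so they are a common feature of the table. With equal rows taken once, 6 rows remain that are no sum of others: mir444c-1, mir444d-3, mir444b, mir444f, mir444d-2 and mir444a-5p. Whether these 6 share reads in other ways was not tested.

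Over these 6 rows, miR444 had 29, 21 and 68 counts in normal libraries 1 to 3. The hot libraries had 32, 87 and 97 counts. Normal library 3 was thus well above the other normal libraries and above hot library 1, and the groups overlap. On the scale of the authors' normalised values, which divide by the library totals, the family stood at 109.8, 83.9 and 246.8 in the normal libraries and at 203.2, 361.9 and 397.8 in the hot libraries. By counts pooled over libraries with identical rows added once (661), miR444 ranked 20 of 113 families. The 661 still include near-equal rows and a row that is the sum of others, so most counts enter it more than once.

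**Figure D1:**
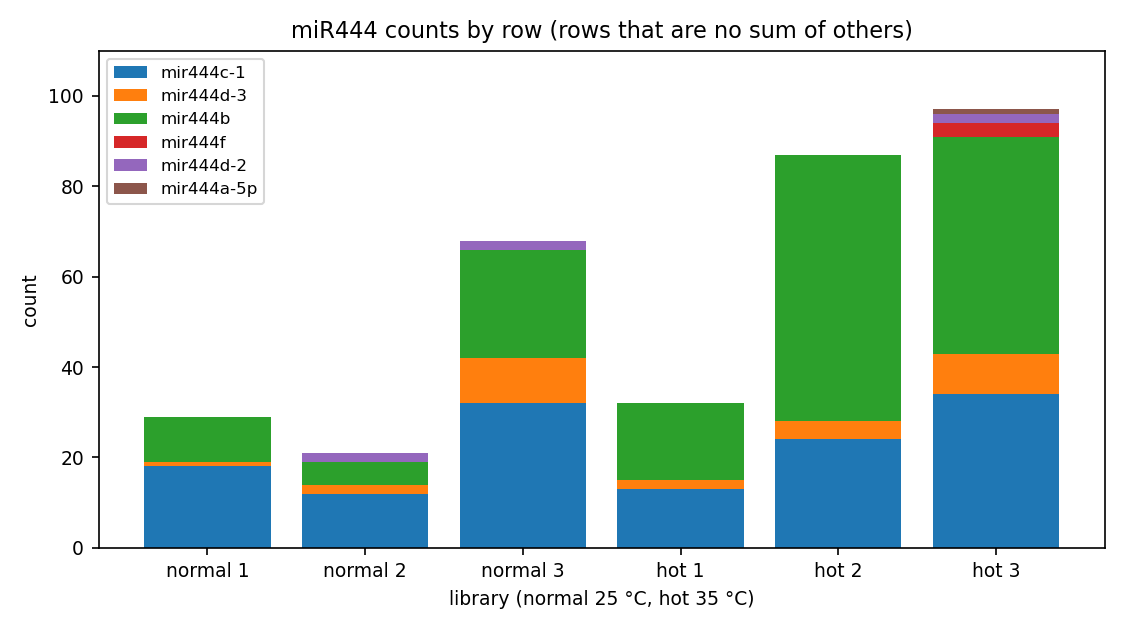
Counts (vertical axis) in each library (horizontal axis), stacked by the 6 miR444 rows that are no sum of others, with equal rows taken once. The mir444b part has 17, 59 and 48 counts in the hot libraries and 10, 5 and 24 in the normal libraries, so that hot library 1 lies below normal library 3, while mir444c-1 runs from 12 to 34 counts over all 6.

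The reads of mir444b-2 and mir444c-2, both under variant number 2, were the most abundant of the family at 35 °C. The identical mir444d-2 and mir444a-3p.2, also under variant number 2, were rare. mir444b-2, with the identical mir444a, had 10, 5 and 24 counts in the normal libraries. In the hot libraries it had 17, 59 and 51 counts. In CPM these are 69.8, 34.9 and 103.2 against 107.9, 188.5 and 138.6. Every hot value lay above every normal value on this scale, but hot library 1 was only just above normal library 3. Over the unscaled column sum, on the same scale, this pair of libraries stood at 100.2 and 118.1, so there the groups overlap. With the library totals the values were 37.9, 19.98 and 87.1 against 107.9, 245.4 and 209.1, and the groups do not overlap. Of the 253 names tested, 77 (30.4%) had every hot CPM above every normal CPM, and 109 (43.1%) had no such overlap with the library totals, so this pattern is common in the table. Names with equal rows each count in these shares.

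The mean of mir444b-2 was 69.3 ± 34.1 CPM at 25 °C and 145.0 ± 40.7 CPM at 35 °C (SD, n = 3 each). The log2 fold change was 1.04 (SE 0.47), and it did not pass the threshold (adjusted p = 0.116, edgeR's quasi-likelihood test with Benjamini-Hochberg adjustment over 253 names). Pooled over libraries it had 39 counts at 25 °C and 127 at 35 °C. The TMM-scaled ratio of the pooled counts was 2.02, and its 95% interval (exact binomial, for counting error only) ran from 1.40 to 2.97. With the deposited library totals the log2 fold change was 1.95 (SE 0.62, adjusted p = 0.0375 in edgeR's test), past the threshold. On that scale the median of all names is itself 0.99, so relative to the other names the value was 0.95, close to the 1.04 under TMM.

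The row of mir444b, mir444c-2 and mir444c-3p differs from mir444b-2 by the 3 counts named above and gives nearly the same values. Its counts were 10, 5 and 24 against 17, 59 and 48, its log2 fold change 1.01 (SE 0.47, adjusted p = 0.122 in edgeR's test) and its value with the library totals 1.91 (adjusted p = 0.0389). The 5 names of both rows are in effect 1 measurement of nearly the same reads.

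The reads under variant number 1 had lower mean CPM at 35 °C than at 25 °C, with overlap between the groups and no call. mir444b-1 had 19, 14 and 42 counts in the normal libraries. In the hot libraries it had 15, 28 and 43 counts. Its CPM were 132.6, 97.7 and 180.5 at 25 °C and 95.2, 89.5 and 116.9 at 35 °C, and these groups overlap. The means were 137.0 ± 41.6 and 100.5 ± 14.5 CPM (SD, n = 3 each), and the fitted log2 change was -0.45 (SE 0.35, adjusted p = 0.356 in edgeR's test). mir444c-1, whose reads make up most of mir444b-1, had 18, 12 and 32 against 13, 24 and 34 counts and a fitted log2 change of -0.47 (SE 0.35, adjusted p = 0.333). With the library totals both values turned positive, to 0.47 each, and did not pass the threshold (adjusted p = 0.462 for mir444b-1 and 0.442 for mir444c-1 in edgeR's test). The direction for variant 1 therefore depends on the scaling. Under TMM the value of mir444b-1 was -0.19 without normal library 3 and -0.15 without the miR156 names.

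**Figure D2:**
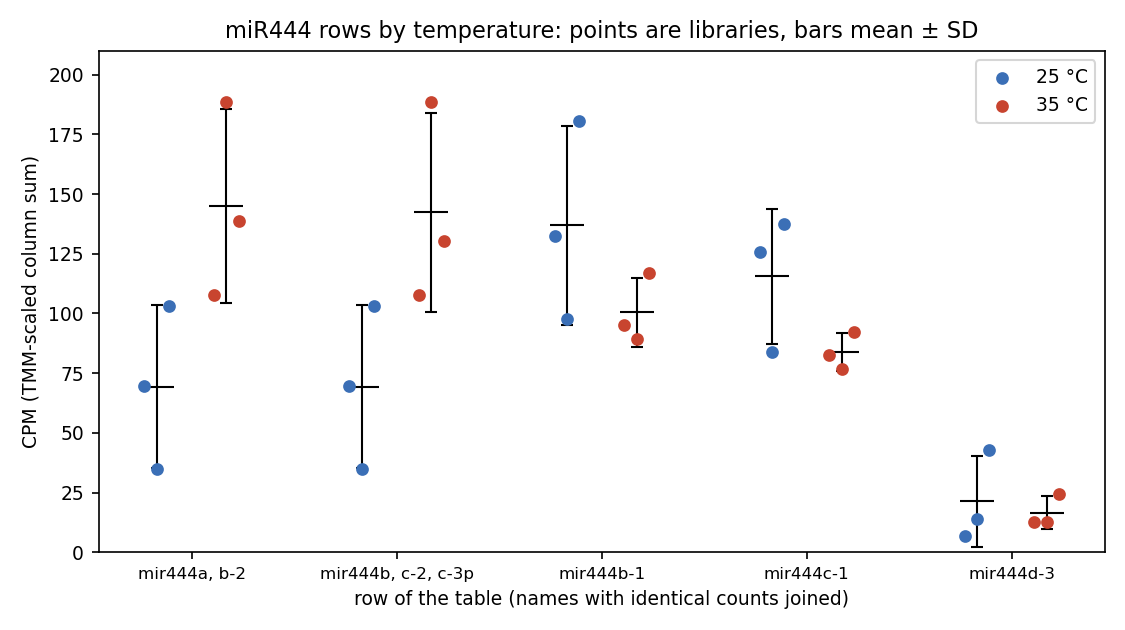
CPM on the TMM-scaled column sum (vertical axis) for the 5 rows with 10 or more pooled counts (horizontal axis), with 1 point per library and bars for the mean ± SD of 3 libraries. The hot points of mir444b-2 run from 107.9 to 188.5 and the normal points from 34.9 to 103.2, while the points of mir444b-1 and mir444c-1 overlap between temperatures.

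The remaining variants were rare. mir444d-3, the only name with variant number 3, had 1, 2 and 10 counts at 25 °C and 2, 4 and 9 at 35 °C, or 13 against 15 counts pooled, a ratio of 0.714 after TMM scaling (exact binomial 95% interval 0.317 to 1.63). mir444d-2, with mir444a-3p.2 and mir444e, had 0, 2 and 2 counts against 0, 0 and 2, a ratio of 0.310 (interval 0.0280 to 2.16). Neither difference was detectable at this depth. mir444a-5p, the only name marked as the opposite arm of the hairpin, had 1 count in hot library 3 and none elsewhere. mir444f had 3 counts there and none elsewhere. A count of 0 allows up to 3 counts, which is 10.89 to 11.99 on the scale of the authors' normalised values in the normal libraries, so no ratio was formed for these names. None of mir444d-3, mir444d-2, mir444a-3p.2, mir444e, mir444a-5p and mir444f passed the filter on low counts. The other 7 of the 13 names (4 count patterns) passed it and were tested.

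Of the 7 tested names, 0 were called higher and 0 lower by edgeR at an adjusted p under 0.05. Among all 253 names tested 58 (22.9%) were called, 18 higher (7.11%) and 40 lower (15.8%). Names with equal rows each count in these shares, as in every share over the 253 names. With 1 row per distinct count pattern, 31 of 166 were called higher and 27 lower. There 0 of the 4 tested miR444 patterns were called, and mir444a had 1.13 (adjusted p = 0.0960 in edgeR's test). With no adjustment, 0 of the 7 and 120 of all 253 names (47.4%) had a p under 0.05 in edgeR. The 0 was not stable between settings. It became 1 of 4 with 1 row per distinct count pattern. Without the miR156 names, without normal library 3 or with the library totals it became 5 of 7. The DESeq2 test and limma-voom called 0 of the 7 as well. Of all 253 names, the DESeq2 test called 64 higher and 40 lower, and limma-voom called 18 higher and 44 lower. With the deposited library totals 5 of the 7 were called higher, all of them names of the 2 near-equal variant 2 rows, where 83 of 253 names (32.8%) were called higher. The median log2 fold change of the 7 names was 1.01 under TMM against 0.01 over all names, and it counts nearly the same variant 2 reads 5 times. With 1 row per distinct count pattern the median of the 4 tested miR444 patterns was 0.37, against -0.15 over all patterns.

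**Figure D3:**
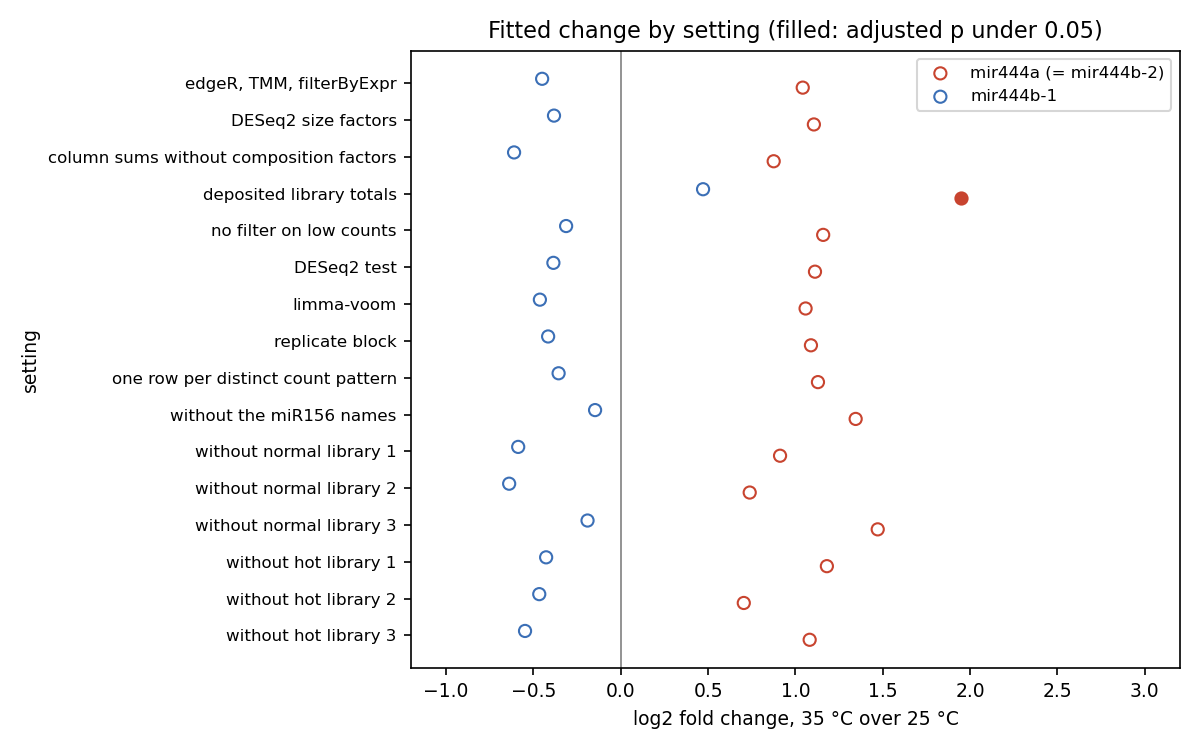
Fitted log2 fold change of 35 °C over 25 °C (horizontal axis) for mir444a, identical to mir444b-2, and for mir444b-1 under each setting (vertical axis), with filled points where the adjusted p was under 0.05. mir444a is positive in every setting shown (0.70 to 1.95) and called only with the deposited library totals; mir444b-1 is negative in all but that one.

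The balance between the variants needs no scaling, because both counts come from the same library. mir444b-2 had 0.526, 0.357 and 0.571 counts per count of mir444b-1 in the normal libraries. In the hot libraries it had 1.13, 2.11 and 1.19. Variant 1 was thus the more abundant of the pair in each normal library and variant 2 in each hot library. The mean log2 ratio was -1.07 ± 0.36 at 25 °C and 0.50 ± 0.50 at 35 °C (SD, n = 3 each), a difference of 1.57 that corresponds to a ratio 2.98 times higher. For mir444c-2 over mir444c-1 the ratios were 0.556, 0.417 and 0.750 against 1.31, 2.46 and 1.41, a difference of 1.57 too, but these are nearly the same reads.

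As a share of all counts under numbered names, with each different row entered once, variant 2 took 34.5%, 30.0% and 37.3% in the normal libraries. In the hot libraries it took 53.1%, 67.8% and 54.0%. The means were 33.9% ± 3.7 and 58.3% ± 8.2 (SD, n = 3 each), a difference of 24.4 percentage points. An exact permutation test of this difference (two-sided) gave p = 0.1, which is the lowest value possible with 3 libraries against 3, so the design cannot pass 0.05. Most counts enter this share more than once, because mir444b-2 and mir444c-2 are nearly equal and mir444b-1 stands beside its parts. The counts of mir444d-3 enter under number 3 and, within mir444b-1, under number 1, so a number does not stand for separate reads. Leaving out rows that are sums of others, the shares were 34.5%, 33.3% and 38.2% against 53.1%, 67.8% and 53.8%, from 10 of 29, 7 of 21, 26 of 68, 17 of 32, 59 of 87 and 50 of 93 counts. Their exact 95% binomial intervals are wide, 17.9% to 54.3% in normal library 1 and 34.7% to 70.9% in hot library 1. Only hot library 2, at 56.9% to 77.4%, lies above the intervals of normal libraries 1 and 3, and its lower bound is just below the upper bound of normal library 2 (57.0%).

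**Figure D4:**
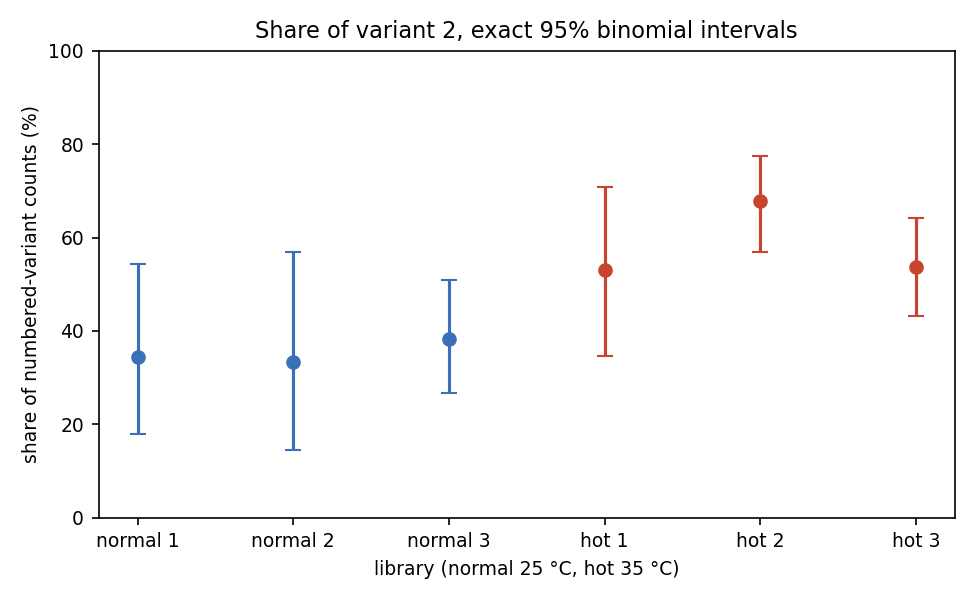
Share of variant 2 among the counts of mir444c-1, mir444c-2, mir444d-2 and mir444d-3 (vertical axis, percent) in each library (horizontal axis), with exact 95% binomial intervals that cover counting error only. The normal libraries sit between 33.3% and 38.2% and the hot libraries between 53.1% and 67.8%, with intervals that overlap for most pairs.

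Ratios with no overlap were not rare in other families, but differences as large as those of miR444 were less common. Among the tested patterns of miR444, 4 of 6 pairs had a ratio with no overlap between temperatures, all 4 of them variant 2 against variant 1. In the other families 428 of 1240 such pairs (34.5%) had no overlap, whatever the size of the difference. With or without overlap, 105 (8.47%) differed in log2 ratio at least as much as the smallest of the 4. That smallest difference was 1.49, after adding 0.5 to each count. Of the 18 other families with at least 2 tested patterns, 10 (55.6%) held at least 1 pair with no overlap, of any size. Pairs of a family share reads, so neither count is one of separate measurements. Variant 3 was too rare for such a comparison. Per count of mir444c-1, mir444d-3 had 0.056, 0.167 and 0.312 counts at 25 °C and 0.154, 0.167 and 0.265 at 35 °C, which overlap. These rest on 1, 2 and 10 against 2, 4 and 9 counts, so the overlap does not show that its ratio stayed the same. Its counts are also part of mir444b-1, so it is no separate row beside variant 1.

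The family sum was not called. With identical rows added once the sum was 425.2 ± 174.0 CPM at 25 °C and 638.4 ± 146.3 CPM at 35 °C (SD, n = 3 each). This sum still holds mir444b-1 beside its parts and the near-equal rows of mir444a and mir444b, so most counts enter it more than once. The log2 fold change of this sum was 0.58 (SE 0.53, adjusted p = 0.471 in edgeR's test over 32 families, of which 11, or 34.4%, passed and 7, or 21.9%, were higher). Over the 6 rows that are no sum of others the level was 216.4 ± 86.5 CPM at 25 °C and 321.2 ± 74.7 CPM at 35 °C (SD). The log2 fold change over these rows was 0.57 (SE 0.51, adjusted p = 0.457 in edgeR's test). For the sum with identical rows added once, the value was 0.07 with unscaled column sums and 1.14 with the library totals. It was 0.34 without normal library 2 and 0.95 without normal library 3, and it was past the threshold in none of these.

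The names outside the family whose log2 CPM ran most like the miR444 sum over the 6 libraries were mir1432-5p (Pearson's r = 0.90), mir398b (r = 0.82) and mir393a (r = 0.81), 1 name per family. mir1432-5p had 4, 4 and 13 counts at 25 °C and 10, 25 and 29 at 35 °C, so it too was high in normal library 3 and low in hot library 1. mir398b had 0, 0 and 7 against 21, 70 and 49 counts. Unlike miR444 it was called higher (log2 fold change 3.69, adjusted p = 0.0368 in edgeR's test), as were 7.11% of all names. mir393a had 0, 0 and 13 against 13, 42 and 13 counts and was not called (1.92, adjusted p = 0.229). These are descriptions over 6 points that share library and depth.

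Other miRNAs of related background were set beside the family. Of 8 names of miR528 and miR1432, families known from monocots, 1 was tested and 0 passed, against 22.9% of all names. That name was mir1432-5p (fitted log2 change 0.95, SE 0.48, adjusted p = 0.147 in edgeR's test). With the library totals it was called, at 1.85 (adjusted p = 0.0405), where 32.8% of all names were called higher. The name mir528 had 0, 4 and 0 against 2, 0 and 0 counts. Of 94 names of miR169, miR395 and miR827, which are linked to nitrogen, sulfate and phosphate supply, 17 were tested and 0 passed, again against 22.9% of all names. Of the 17, 16 were miR395 names and 1 was of miR169, so the count describes miR395 almost alone. How many different rows these 16 names hold is not given here, so the 0 of 17 shows no difference from the share over all names. The median log2 fold change of the 17 was 0.02, against 0.01 over all names. The most abundant of them, mir395a, which targets transcripts of sulfate assimilation, had 54, 72 and 18 counts at 25 °C and 108, 19 and 90 at 35 °C (log2 fold change 0.04, SE 0.94).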

How the data were processed

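Per the labels' protocols, mirVana small RNA went into bead-selected NEBNext libraries; the design text names a MiSeq sequencer. The deposited table gives read counts (raw expression) and a normalised signal per miRNA name and library, per the file headers. The aligner, miRNA database and genome build were not given in the sources used here. Sequences and positions were not analysed here. The deposited normalised signal is the count divided by a single total of the library, on the same scale throughout, and served only to recover that total (median over names with more than 20 counts).

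Counts of all 641 names were fitted with edgeR 4.0.16 in R 4.3.3 (filterByExpr with a minimum count of 10, TMM, a quasi-likelihood test with temperature group as its single term). Family sums were fitted separately. The threshold was a Benjamini-Hochberg adjusted p of 0.05. The standard error is the log2 fold change over the square root of F. DESeq2 1.42.0 and limma 3.58.1 (voom) were alternatives, and shares were tested with SciPy 1.17.1. On simulated counts with a log2 change of 2, the fit over 253 names called 92% of 50 changed names and 0.49% of the others. The simulation gave all names the same dispersion, and its change was larger than those fitted for miR444. It therefore does not give the power for the miR444 rows. Libraries of a group differed beyond counting error in every pair (chi-square divided by its degrees of freedom, 5.13 to 23.2, on 1 row per count pattern), so each counted as 1 replicate. The labels name no batch, and the reads carry no stated molecular identifiers.

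All 13 miR444 names are reported. The like-running names are the 3 with the highest correlation, 1 per family, and the list families are shown by their most abundant name. Families planned for these lists that had no name among the counts are left out. Members, lists and tests were chosen with earlier results of these data known. The sums over rows that are no sum of others, and the shares within mir444b and within mir444c, were added after seeing the data. The variant numbers had been planned as written with a dot and were read with a hyphen too.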

Additional observations from a re-analysis of the deposited data

How the results depend on the processing

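The number of miR444 names called lower was 0 in all 15 alternatives run, and the number called higher was 0 in 14 of them, those that leave out 1 library included (0 to 0). With the deposited library totals it was 5. There mir444b-1 and mir444c-1 reversed, to 0.47 each (0.4708 and 0.4718), neither past the threshold. The cause was not tested. Over all names the calls moved widely between alternatives. Lower calls ran from 1 of 253 (library totals) to 58 of 253 (unscaled column sums). Higher calls ran from 13 of 264 (without normal library 2) to 83 of 253 (library totals). The alternatives tested 7 miR444 names, except 4 with 1 row per count pattern and 13 with no filter on low counts. Leaving out 1 library gave 0.65 (without hot library 2) to 1.44 (without normal library 3) for mir444b and its equal rows and 0.70 to 1.47 for mir444a, with adjusted p of 0.0734 to 0.411 in edgeR's test for mir444a. For mir444b-1 it gave -0.64 (without normal library 2) to -0.19 (without normal library 3) and for mir444c-1 -0.65 to -0.32, and without the miR156 names these had -0.15 and -0.16. The family sum kept its positive value, not past the threshold, in all 17 alternatives. The difference in the share of variant 2 went from 19.6 percentage points (without hot library 2) to 27.0 (without hot library 1).

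Same-numbered libraries had deviations that correlated at 0.50, -0.32 and 0.03, and 2 of 6 libraries correlated best with their own number, so the numbers were not taken as pairs. With the replicate number as a block, 0 miR444 names were called in either direction, mir444a had 1.09 (adjusted p = 0.173 in edgeR's test) and the family sum 0.63 (adjusted p = 0.651). The share difference was 24.4 points as a mean of paired differences (exact sign-flip p = 0.25, the smallest that 3 pairs allow). Over all names the block moved the calls from 18 higher and 40 lower to 28 and 35.

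With 5 to 59 counts per library in the main rows, depth limits every statement made on a single library.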
